A study of Mus musculus with 2 samples.

Results

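A set of 10 genes of the endoplasmic reticulum (ER) protein folding machinery and of the unfolded protein response were followed through alloreactive T cells after allogeneic hematopoietic cell transplantation (allo-HCT). They were found by symbol in the gene list of the scRNA-seq data. The 10 genes are *Hspa5*, *Hsp90b1*, *Calr*, *Canx*, *Pdia3*, *Pdia4*, *Pdia6*, *Xbp1*, *Ddit3* and *Herpud1*, and they take 11 of the 32285 rows. *Ddit3* has a pair of identifiers with overlapping gene models on chr10, and the row of ENSMUSG00000116429 held 0 UMIs in both libraries, so all *Ddit3* UMIs lie in the row of ENSMUSG00000025408.

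The data are 2 libraries of splenic donor T cells, 1 from day +7 and 1 from day +14 after allo-HCT, in the fully allogeneic C57BL/6 to BALB/c model. In both, irradiated BALB/c recipients had received T cell–depleted bone marrow and purified splenic T cells from C57BL/6 donors, and cells were pooled from 5 spleens and sorted as CD45+ H2Kb+ H2Kd- TCRβ+. The library names contain "PBS" without further explanation, and the labels describe a sort at day +7 for both libraries, so the day was taken from the title. The study's methods describe age-matched female mice but also state that both sexes were used in vivo. The sex of these mice is therefore not settled. With 1 library per day no difference between the days has a replicate or a test. Every interval is a 95% interval that covers counting error only. The day and the library cannot be told apart.

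The day +7 library held 7355 barcodes and the day +14 library 8043, of which 7179 and 7794 had 500 to 7500 detected genes and at most 15% mitochondrial unique molecular identifiers (UMIs). A UMI marks 1 captured RNA molecule, and these cells held 86745047 and 83808218 UMIs, with medians of 9210 and 8144 per cell. The T gate held 6934 and 7600 cells, and in it the 6 T cell receptor genes reached 5987 and 7619 counts per 1000000 UMIs (CPM) against 46.6 and 62.4 CPM for the 10 myeloid genes. Other lineages made up 66 and 84 myeloid-gated and 105 and 21 erythroid-gated barcodes, and at day +14 another 2 in the B and plasma cell gate. The T cell genes reached 94.5 and 156 CPM in the myeloid gate. Both gates are defined by these gene lists, so their own thresholds limit these levels. Free RNA in the droplets was not measured. The libraries shared 17 kept barcodes.

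Proteins that are secreted or displayed on the surface fold in the ER, where chaperones hold the unfolded chains, lectin chaperones bind their sugars and protein disulfide isomerases form their disulfide bonds. When unfolded chains build up, the sensors IRE1, PERK and ATF6 switch on the unfolded protein response, which raises chaperone transcription, lowers general translation and, if stress lasts, favors cell death. In lymphocytes this machinery is best known from plasma cells, which secrete antibody, and activated T cells also enlarge their ER as they grow and make surface receptors and cytokines.

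The promoters of several of the genes hold elements of this response. ATF6 and NF-Y are known to bind the ER stress response element (ERSE), spelled CCAAT, then 9 bases of any kind, then CCACG, which was first defined on chaperone promoters of this family. Its presence is therefore no independent finding. RefSeq promoter windows of build GRCm38.p6, from 250 bases before to 50 bases after the start, were found for all 10 genes and searched on both strands. ERSE was present in 5 of the 10 genes, *Hspa5*, *Hsp90b1*, *Calr*, *Canx* and *Pdia6*, and in 39 of all 32851 windows (0.119%). These windows leave out all promoters of a chromosome that holds none of the 10 genes. *Hsp90b1* had 2 matches. The stretches are shown because they hold the ERSE matches of these 5 genes, with the match in capitals.
Hspa5: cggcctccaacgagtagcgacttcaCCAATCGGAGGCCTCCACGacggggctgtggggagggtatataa
Canx: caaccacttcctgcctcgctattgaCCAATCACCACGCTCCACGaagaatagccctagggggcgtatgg
Pdia6: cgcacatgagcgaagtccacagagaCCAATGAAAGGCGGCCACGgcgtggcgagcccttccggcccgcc
Calr: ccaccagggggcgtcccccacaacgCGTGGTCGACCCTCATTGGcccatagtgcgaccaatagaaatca
Hsp90b1: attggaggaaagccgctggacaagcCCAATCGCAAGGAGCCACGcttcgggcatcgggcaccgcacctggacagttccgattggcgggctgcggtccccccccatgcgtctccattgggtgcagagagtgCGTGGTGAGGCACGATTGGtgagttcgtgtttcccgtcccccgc

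The *Hspa5* stretch lies at chr2:34772000-34772068 on the plus strand, *Canx* at chr11:50325775-50325843 on the minus strand, *Pdia6* at chr12:17266466-17266534 on the plus strand, *Calr* at chr8:84847050-84847118 on the minus strand and *Hsp90b1* at chr10:86705508-86705681 on the minus strand. All are written 5′ to 3′ on the strand of the gene. In *Calr* and at the second *Hsp90b1* site the element is on the other strand, so the capitals there show its reverse complement. The matches begin at −65 in *Hspa5*, −145 in *Canx*, −98 in *Pdia6*, −162 in *Calr* and −212 and −107 in *Hsp90b1*, counted from the RefSeq start. The GENCODE model of *Hspa5* starts upstream of the RefSeq start, at position 34771970, so its stretch is promoter by the RefSeq model and part of the gene by the other.

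*Herpud1*, whose product helps to bring misfolded proteins to degradation at the ER membrane, had a different pair of elements. It held ERSE-II, spelled ATTGG, 1 base of any kind and CCACG, which was present in 12 windows (0.0365%), and the C/EBP-ATF response element (CARE), spelled TGATGNAA, which was present in 1304 windows (3.97%). Its stretch at chr8:94386292-94386412 on the plus strand is shown for this contrast, with CARE first, on the other strand, and ERSE-II second.
Herpud1: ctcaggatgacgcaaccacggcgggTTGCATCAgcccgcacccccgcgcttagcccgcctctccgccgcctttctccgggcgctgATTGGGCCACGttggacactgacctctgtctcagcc

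The unfolded protein response element (UPRE), spelled TGACGTGG, was in none of the 10 windows and in 222 of all windows (0.676%). The letters CCACG that end ERSE and ERSE-II recur in UPRE on the other strand, so matches to these motifs can overlap. *Pdia3*, *Pdia4*, *Xbp1* and *Ddit3* held none of the 4 motifs, which says only that these letters are not in these windows.

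**Figure D1:**
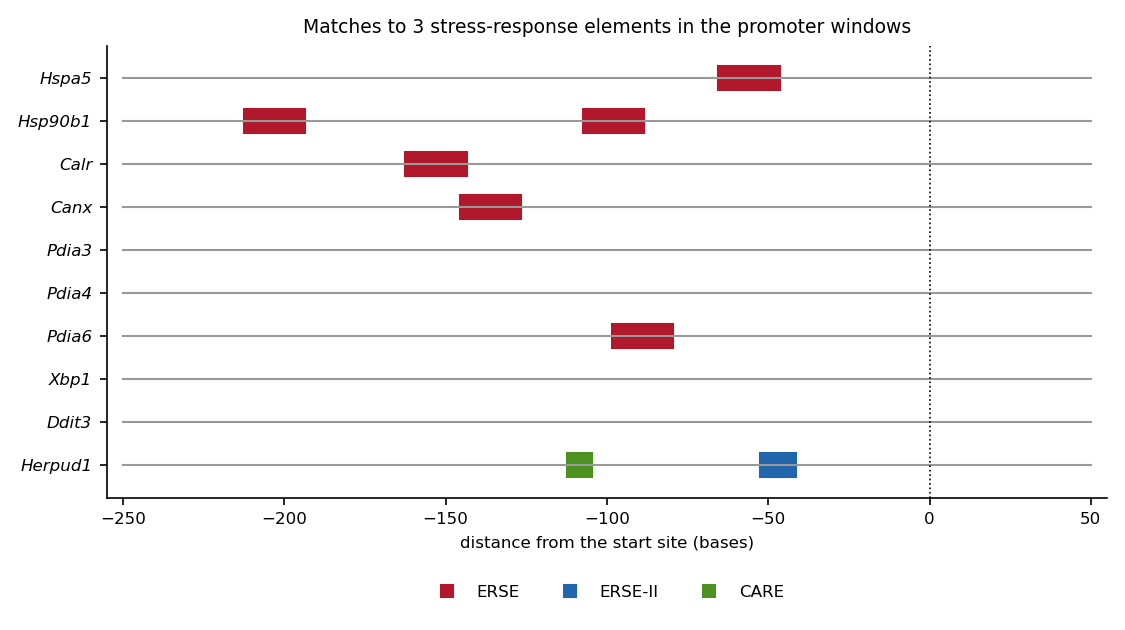
Position of each match in the 10 promoter windows, with the distance from the RefSeq start in bases on the horizontal axis and 1 line per gene. Red boxes mark ERSE, the blue box ERSE-II and the green box CARE, and 4 genes have no box.

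The ER machinery was measured in every gate of both libraries, and its summed level differed more between cycling and non-cycling cells than between the days. Cells were gated as CD8 or CD4 by their co-receptor UMIs and as cycling when 10 cycling genes reached 5 per 10000 UMIs. The 10 genes together reached 1873 CPM (1864 to 1883) in T-gated cells of day +7 and 1917 CPM (1908 to 1927) at day +14. In CD8 non-cycling cells the sums were 1434 and 1553 CPM, and in CD8 cycling cells 2045 and 2030 CPM. In CD4 non-cycling cells they were 1618 and 1638 CPM, and in CD4 cycling cells 2150 and 2099 CPM. In both libraries the order of the 4 gates was therefore the same, from CD8 non-cycling through CD4 non-cycling and CD8 cycling to CD4 cycling cells, and the intervals of neighboring gates in that order did not overlap.

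**Figure D2:**
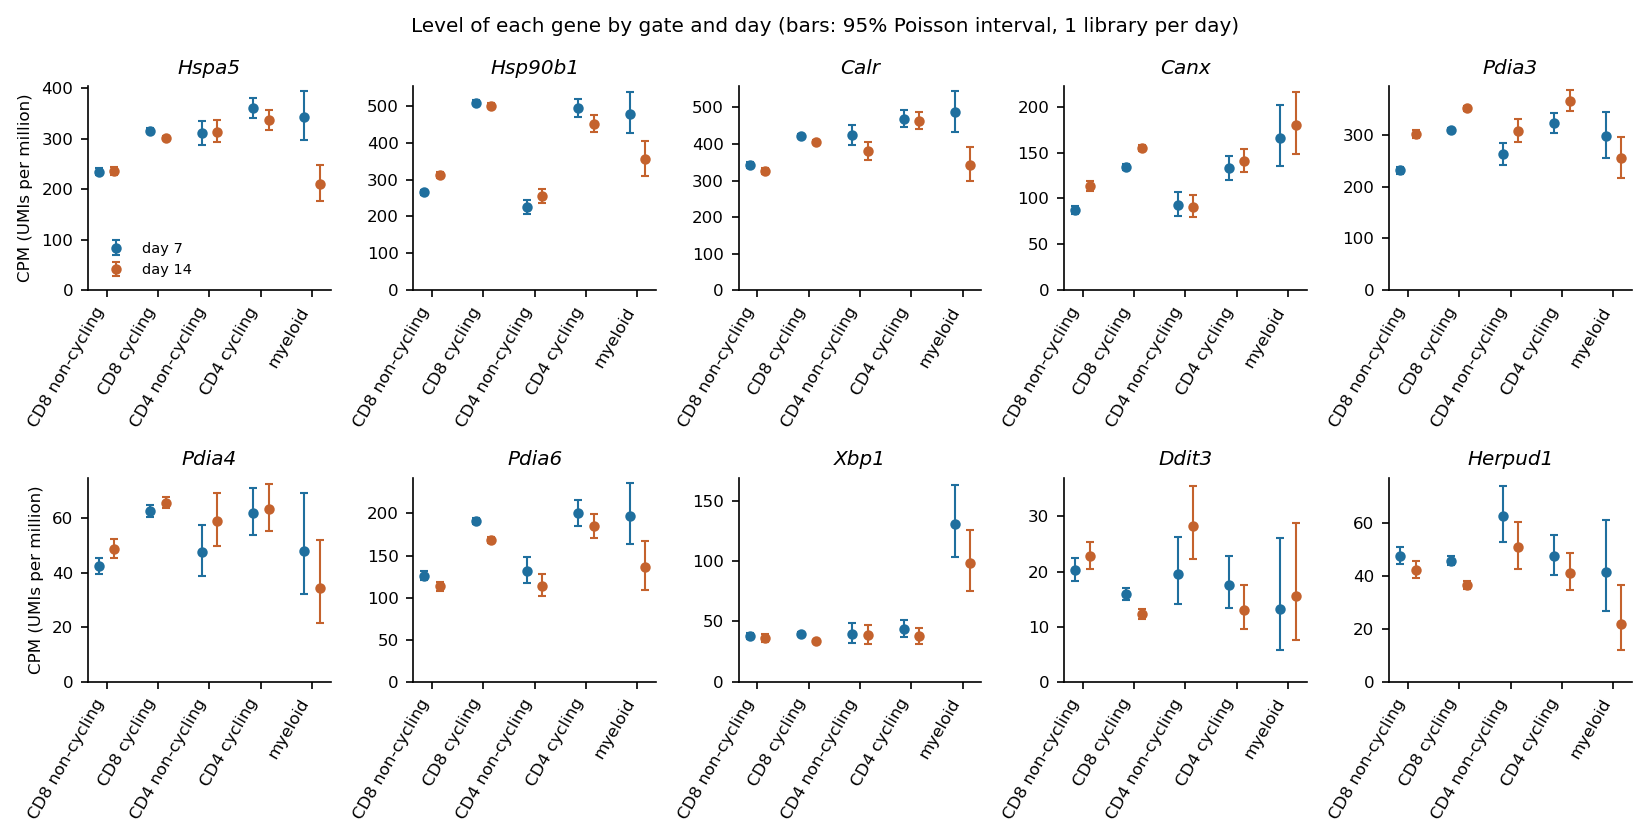
Level of each gene in CPM (vertical axes, from 0) in 4 T cell gates and the myeloid gate, with day +7 in blue, day +14 in orange and bars for the 95% Poisson interval of 1 library per day. The folding genes are higher in the cycling gates, though some bars overlap in CD4 cells. *Ddit3* is lower in the cycling gates, and *Xbp1* stands highest in the myeloid gate.

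*Hsp90b1* encodes GRP94, the HSP90 chaperone of the ER that folds integrins and Toll-like receptors, and it had the highest ratio of cycling over non-cycling cells of the 10 genes. Among CD8 cells it rose from 265 CPM (258 to 273) in non-cycling to 509 CPM (503 to 515) in cycling cells at day +7, and from 312 CPM (303 to 321) to 501 CPM (495 to 507) at day +14. The log2 ratios were 0.94 (0.90 to 0.98) and 0.68 (0.64 to 0.73). Among CD4 cells it went from 225 to 494 CPM at day +7 and from 255 to 452 CPM at day +14, with log2 ratios of 1.13 (0.99 to 1.28) and 0.83 (0.69 to 0.96). In all 4 comparisons the cycling value was above the non-cycling one with no overlap of intervals.

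The other folding genes had the same direction in CD8 cells. *Hspa5* encodes BiP, the HSP70 chaperone that also holds the sensors inactive, and it stood at 234 CPM in non-cycling and 316 CPM in cycling cells of day +7 and at 236 and 301 CPM at day +14. *Calr* and *Canx* encode calreticulin and calnexin, the soluble and the membrane-bound lectin chaperone. *Calr* was at 343 and 421 CPM at day +7 and at 327 and 405 CPM at day +14, and *Canx* at 86.9 and 134 CPM and at 113 and 154 CPM. The log2 ratios of these 3 genes were 0.43 and 0.35 for *Hspa5*, 0.30 and 0.31 for *Calr*, and 0.63 and 0.45 for *Canx*, on day +7 and day +14, and all 6 intervals lay above 0.

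The 3 disulfide isomerases followed. *Pdia3*, the partner of the lectin chaperones and part of the MHC class I loading complex, went from 231 to 310 CPM at day +7 and from 302 to 352 CPM at day +14. *Pdia4*, known as ERp72, went from 42.3 to 62.6 CPM and from 48.6 to 65.6 CPM. *Pdia6*, which also attenuates signaling of the sensors, went from 126 to 191 CPM and from 113 to 168 CPM. Their log2 ratios at day +7 and day +14 were 0.42 and 0.22 for *Pdia3*, 0.57 and 0.43 for *Pdia4*, and 0.61 and 0.57 for *Pdia6*.

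The stress response genes did not share that direction. *Xbp1* encodes the transcription factor made active when IRE1 splices its mRNA, and gene counts do not separate the spliced form. It stood at 37.8 and 39.5 CPM in CD8 non-cycling and cycling cells of day +7 and at 36.2 and 33.4 CPM at day +14. Its log2 ratios of 0.06 (−0.06 to 0.19) and −0.12 (−0.25 to 0.02) were within counting error, and their signs turned under some processing alternatives. *Herpud1* was at 47.8 and 45.9 CPM at day +7 (log2 ratio −0.06, −0.17 to 0.05) and at 42.5 and 36.6 CPM at day +14 (−0.22, −0.34 to −0.09).

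*Ddit3* encodes CHOP, the transcription factor that the PERK branch and other arms of the integrated stress response induce. It was lower in cycling CD8 cells, at 15.96 CPM (14.9 to 17.1) against 20.2 CPM (18.2 to 22.4) at day +7 and at 12.3 CPM (11.4 to 13.2) against 22.8 CPM (20.5 to 25.3) at day +14. The log2 ratios were −0.34 (−0.52 to −0.16) and −0.90 (−1.08 to −0.71). In CD4 cells they were −0.15 (−0.74 to 0.46) on 58 and 43 UMIs and −1.11 (−1.68 to −0.56) on 45 and 73 UMIs, so only the day +14 interval was below 0.

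**Figure D3:**
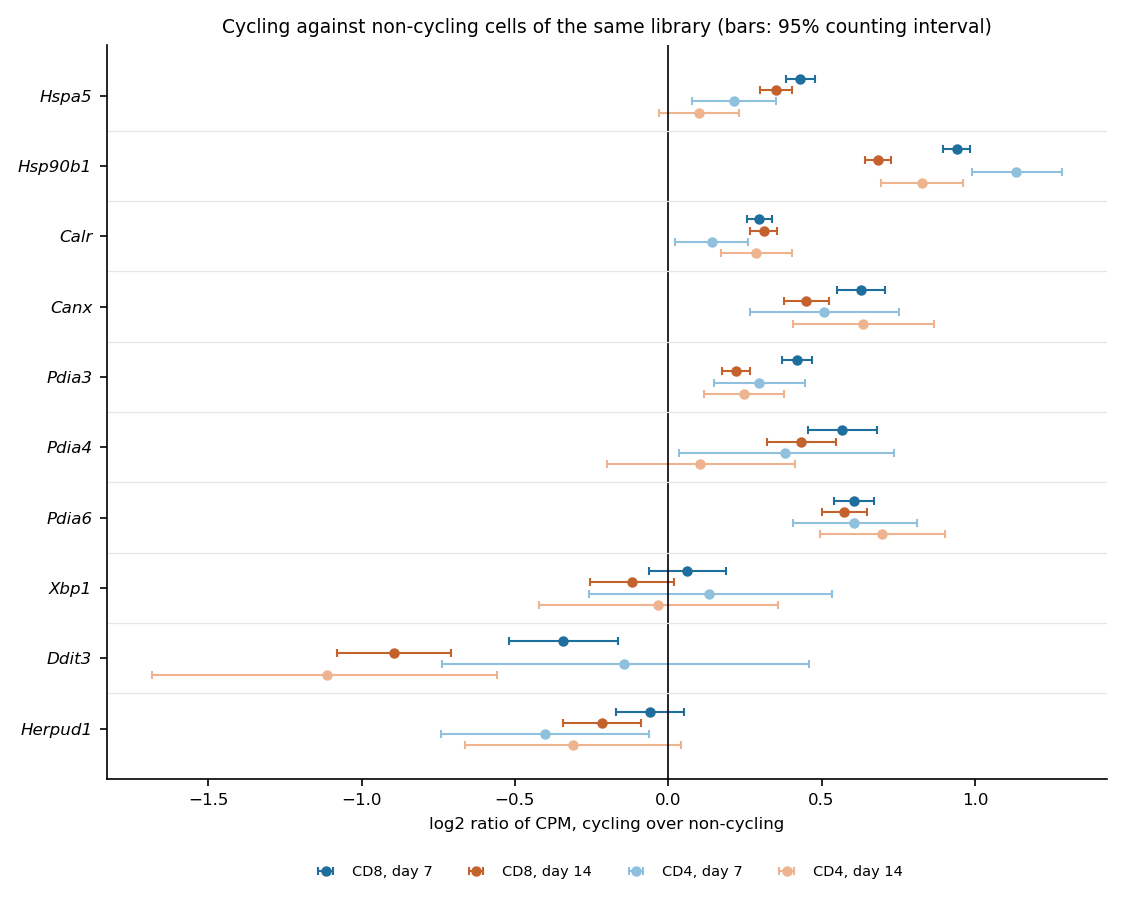
Log2 ratio of CPM, cycling over non-cycling cells of the same library (horizontal axis), for each gene in CD8 and CD4 cells of both days, with bars for the 95% counting interval. By their points, all 7 folding genes lie to the right of 0 in the 4 comparisons, *Ddit3* and *Herpud1* lie to the left, and *Xbp1* lies around 0. Some bars cross 0, and in CD4 cells of day +14 only 5 of the 10 intervals lie above 0 and 1 below.

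Counted by a difference of 1.5-fold or more, 3 of the 10 genes (*Hsp90b1*, *Canx* and *Pdia6*) were higher in cycling CD8 cells of day +7 and 0 were lower, where 14.1% and 6.47% of 6537 tested genes were past that fold in each direction. At day +14 it was 1 gene higher (*Hsp90b1*) and 1 lower (*Ddit3*), against 12.4% and 7.75% of 7084 genes. In CD4 cells of day +7 it was 2 higher (*Hsp90b1* and *Pdia6*) and 0 lower, against 15.7% and 11.2%, and at day +14 it was 3 higher (*Hsp90b1*, *Canx* and *Pdia6*) and 1 lower (*Ddit3*), against 16.5% and 20.5%. The median log2 ratio of the 10 genes in CD8 cells was 0.43 and 0.33 on the 2 days, beside 0.05 and 0.02 over all tested genes. Leaving out the deepest 5% of barcodes, setting the cycling threshold at 10 per 10000 or leaving mitochondrial and ribosomal genes out of the totals brought the 3 genes of CD8 cells at day +7 down to 1. These counts past the fold lie near the background and are no result about the 10 genes.

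Other measures moved with the cell cycle. Cycling CD8 cells were deeper, with medians of 13280 and 12752 UMIs against 6919 and 5816 in non-cycling cells. Of the early response genes that tissue dissociation induces, such as *Fos* and *Jun*, 7 of 11 tested were lower by 1.5-fold or more in cycling CD8 cells of day +7 (median log2 ratio −0.77) and 4 of 10 at day +14 (−0.41). All 12 tested cytosolic heat shock chaperones were above 0 on both days (median log2 ratios 0.49 and 0.48), as were 55.5% and 51.7% of all tested genes. The part of depth and handling in the result was not tested further than by thinning each cell to 4000 UMIs. After thinning, the ratios of all 10 genes kept their signs in CD8 cells of both days. In thinned CD4 cells of day +14, *Hspa5* had a mean of 1.26 UMIs per cell in both the non-cycling and the cycling gate. The cycling gate is a range of a score, and 322 of 5862 CD8 cells at day +7 and 366 of 6150 at day +14 lay within 1 UMI per 10000 of its threshold.

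Along the level of the cycling genes, the sum of the 10 genes rose and then fell, though not every folding gene did. CD8 cells were divided into 7 bins, from cells with no cycling UMI to cells with 40 or more per 10000. The sum of the 10 genes rose from 1231 CPM in the lowest bin to 2220 CPM in cells with 10 to 20 per 10000 and was 1733 CPM in the highest bin at day +7. At day +14 the same bins held 1391, 2208 and 1832 CPM. The bins differed in depth, with median UMIs between 6298 and 15911 per cell at day +7 and between 4943 and 15724 at day +14, and that part was not tested.

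*Pdia6* had the clearest rise and fall, from 93.5 CPM in the lowest bin to 227 CPM at 10 to 20 per 10000 and 131 CPM in the highest bin at day +7, and 91.6, 206 and 126 CPM at day +14. *Hspa5* went from 204 to 352 and back to 245 CPM at day +7, and from 218 to 342 and 248 CPM at day +14. *Hsp90b1* rose from 205 to 530 CPM and stayed at 482 CPM in the highest bin at day +7, and at day +14 it went from 261 to 516 and 497 CPM. *Pdia4* stood at 37.0, 63.3 and 61.2 CPM in these bins at day +7 and at 48.4, 67.9 and 68.3 CPM at day +14, where the highest bin also had its highest value. *Hsp90b1* and *Pdia4* thus kept most of their increase in the highest bin, whereas *Pdia6* and *Hspa5* lost most of theirs.

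*Ddit3* ran the other way over the lower bins. It fell from 23.5 CPM in cells without cycling UMIs to 12.5 CPM at 10 to 20 per 10000 at day +7 and stood at 21.1 CPM in the highest bin. At day +14 it fell from 28.5 to 10.4 CPM and was 13.0 CPM in the highest bin. The return in the highest bin was therefore seen at day +7 and was small at day +14.

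**Figure D4:**
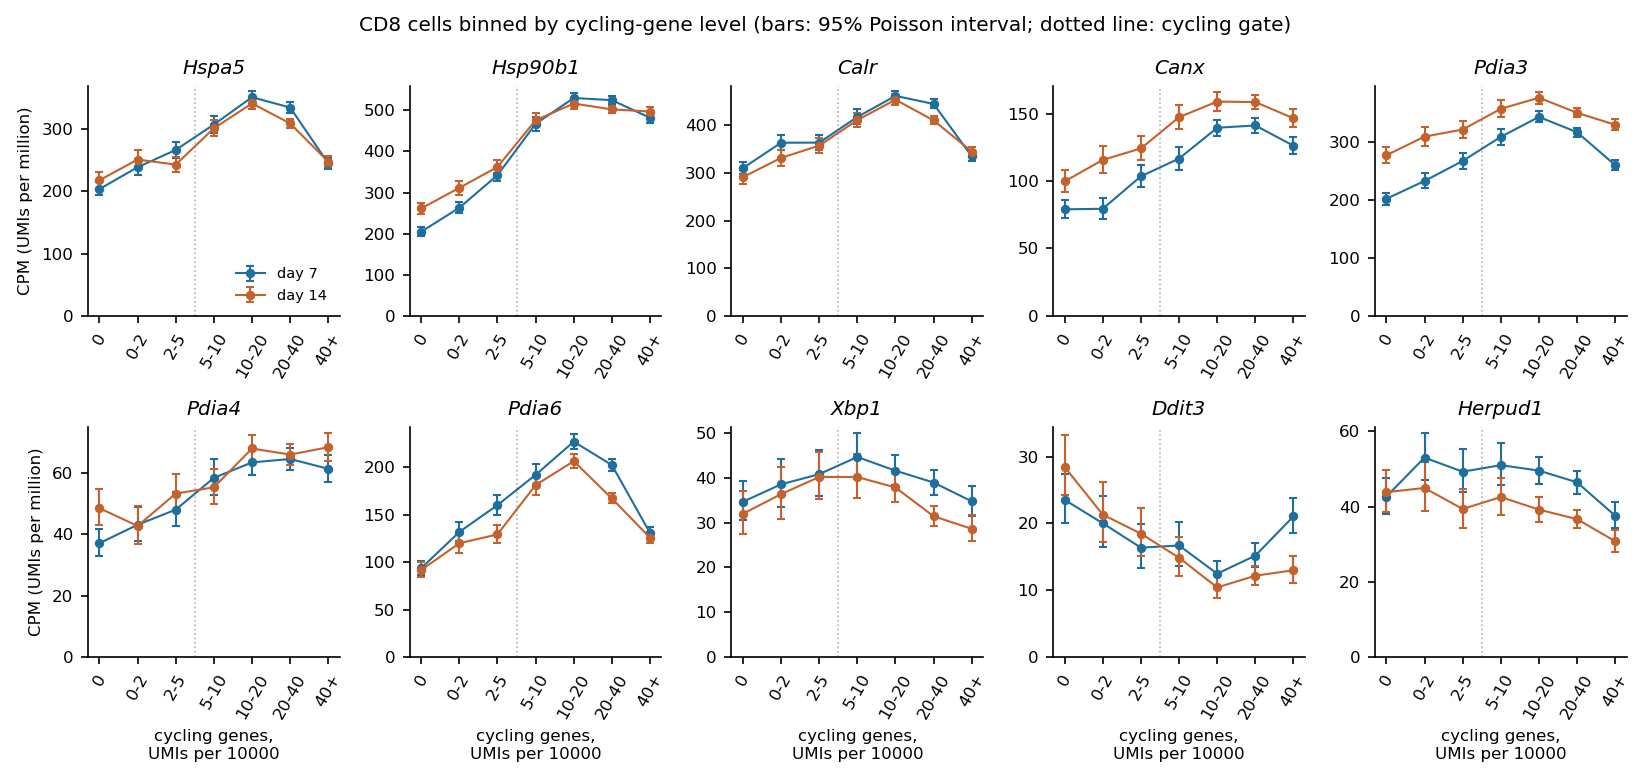
Level in CPM (vertical axes, from 0) of each gene in CD8 cells divided into 7 bins by the UMIs of the 10 cycling genes per 10000 (horizontal axes), with day +7 in blue, day +14 in orange, bars for the 95% Poisson interval and a dotted line at the cycling threshold. *Pdia6* and *Hspa5* peak at 10 to 20 per 10000, *Hsp90b1* and *Pdia4* stay high, and *Ddit3* is lowest at 10 to 20 per 10000.

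The comparison of the days asks how the machinery differed as acute graft-versus-host disease progressed. None of the 10 genes differed by 1.5-fold or more in T-gated cells, where 10.2% of 6869 tested genes were higher and 2.72% lower at day +14. *Canx* was at 120 CPM (118 to 123) on day +7 and 142 CPM (140 to 145) on day +14, and *Pdia3* at 288 CPM (285 to 292) and 340 CPM (336 to 344), with log2 ratios of 0.24 each. *Herpud1* was at 47.1 CPM (45.6 to 48.6) and 39.1 CPM (37.7 to 40.5), with a log2 ratio of −0.27 (−0.34 to −0.20).

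Over all kept cells, other lineages included, 0 of the 10 genes were past the fold as well, beside 9.44% higher and 2.76% lower of all tested genes. A further 557 T-gated cells at day +7 and 663 at day +14 passed neither the CD4 nor the CD8 gate. Summed over these cells, UMIs of *Cd4* and of *Cd8a* or *Cd8b1* were present on both days, so the group as a whole was not free of co-receptor RNA. Such sums do not show which single cells held a co-receptor UMI, and cells with none can be among them. Between the days, 9 of the 10 genes were above 0 in these cells, beside 73.2% of all tested genes. Past the fold were 0 of the 10 genes, beside 21.3% higher and 2.86% lower of all tested genes.

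The other log2 ratios of day +14 over day +7 in T-gated cells were 0.12 for *Pdia4*, 0.05 for *Hsp90b1*, −0.03 for *Hspa5*, −0.04 for *Calr*, −0.15 for *Pdia6*, −0.18 for *Ddit3* and −0.19 for *Xbp1*. The interval of *Hspa5* included 0. The median over all tested genes was 0.20, so most genes were higher in CPM at day +14. Scaled instead by the median ratio of genes, which shifts every ratio by 0.23, *Canx* and *Pdia3* were at 0.012 and 0.0062, *Pdia4* and *Hsp90b1* turned to −0.11 and −0.18, and *Herpud1* was at −0.50. The direction of the sum also turned, from 0.03 to −0.20. *Ddit3* turned to 0.06 both with equal weight to the 4 CD4 and CD8 gates and as a mean of per-cell CPM.

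Within gates, *Canx* and *Pdia3* differed most in CD8 non-cycling cells. *Canx* rose there from 86.9 to 113 CPM (log2 ratio 0.38, 0.28 to 0.48) and *Pdia3* from 231 to 302 CPM (0.38, 0.32 to 0.44), whereas in CD8 cycling cells the ratios were 0.20 (0.16 to 0.25) and 0.18 (0.15 to 0.21). *Hsp90b1* was higher at day +14 in CD8 non-cycling cells, at 0.23 (0.18 to 0.29), and not in cycling ones, at −0.02 (−0.05 to 0.0009). *Pdia6* was lower in both CD8 gates, at −0.15 and −0.19, and *Herpud1* likewise, at −0.17 and −0.33. Over all tested genes the median was 0.21 in CD8 non-cycling and 0.17 in CD8 cycling cells, and median-ratio scaling lowers each ratio by 0.22 and 0.20 in these gates. The *Hsp90b1* value in non-cycling cells was therefore near that of the middle gene, and the *Pdia3* value in cycling cells falls below 0 by that scaling.

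*Ddit3* had values above 0 in non-cycling and below 0 in cycling cells on the CPM scale. In CD8 non-cycling cells it was 20.2 CPM at day +7 and 22.8 CPM at day +14 (log2 ratio 0.17, −0.04 to 0.39), and in CD8 cycling cells 15.96 and 12.3 CPM (−0.38, −0.53 to −0.23). The non-cycling interval included 0, and median-ratio scaling, with its shift of 0.22, takes that value below 0 as well. In CD4 cells the same contrast was 0.54 (−0.02 to 1.12) and −0.43 (−1.02 to 0.16). In 0 of the 10 genes did the 4 T cell gates show a difference of 1.5-fold or more between days, beside 17.5% higher and 3.27% lower of the genes tested in CD8 non-cycling cells, 8.3% and 2.73% in CD8 cycling, 23.4% and 4.18% in CD4 non-cycling and 11.7% and 3.46% in CD4 cycling cells.

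**Figure D5:**
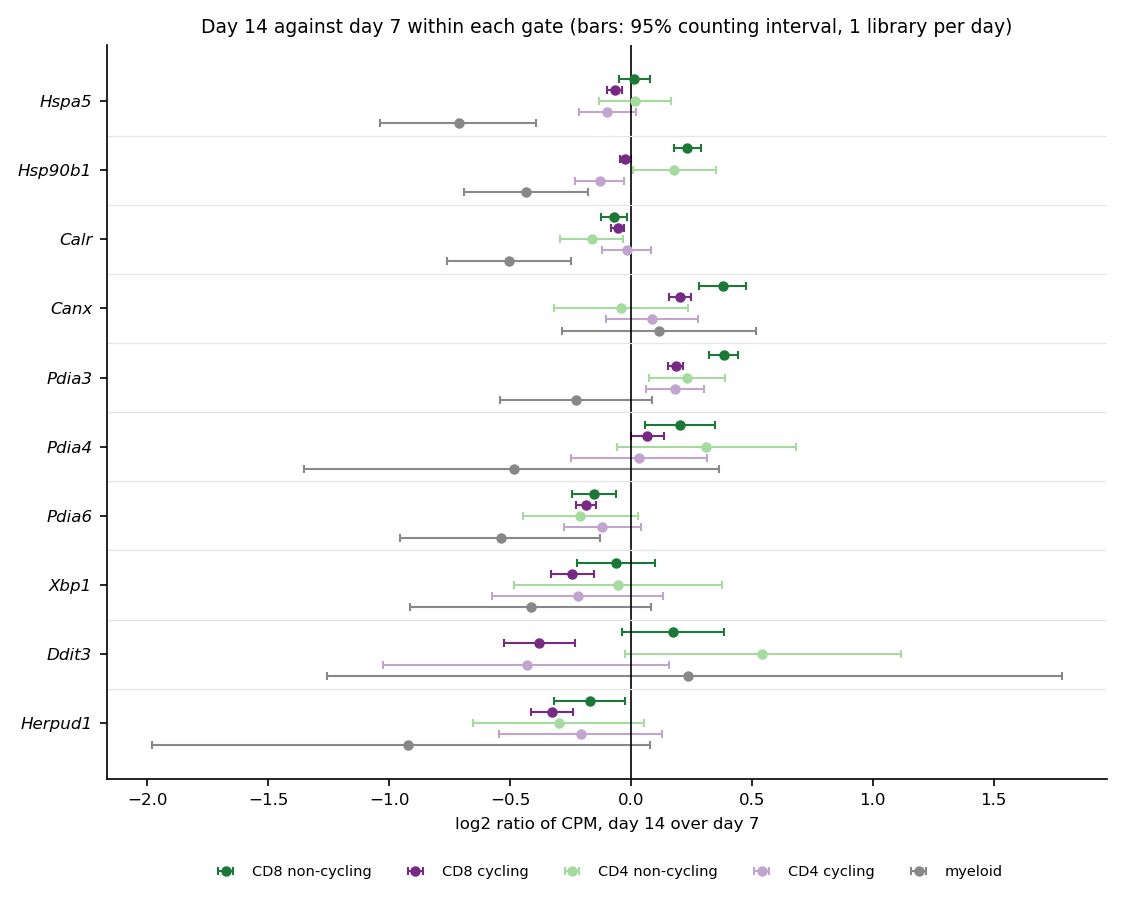
Log2 ratio of CPM, day +14 over day +7 (horizontal axis), for each gene in 4 T cell gates and the myeloid gate, with bars for the 95% counting interval of 1 library per day. On this CPM scale *Pdia3* lies to the right of 0 in the 4 T cell gates, though below 0 in CD8 cycling cells by median-ratio scaling, and *Pdia6* and *Herpud1* to the left of 0 in all 5 gates.

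*Hspa5* and *Hsp90b1* differed between CD4 and CD8 cells in opposite directions. Among non-cycling cells *Hspa5* was higher in CD4 than in CD8 cells, at 310 CPM (287 to 334) against 234 CPM (227 to 241) at day +7 and 314 CPM (292 to 336) against 236 CPM (229 to 244) at day +14, with a log2 ratio of 0.41 on both days. *Calr* was also higher, at 0.31 (0.21 to 0.41) and 0.22 (0.12 to 0.32), whereas *Hsp90b1* was lower, at −0.24 (−0.37 to −0.10) and −0.29 (−0.41 to −0.17). *Herpud1* was at 62.9 CPM in CD4 and 47.8 CPM in CD8 cells of day +7 (0.40, 0.13 to 0.66) and at 51.2 and 42.5 CPM at day +14 (0.27, −0.01 to 0.54). None of the 10 genes was past 1.5-fold in either direction, beside 7.09% higher and 3.83% lower of all tested genes at day +7 and 9.39% and 4.16% at day +14. Among cycling cells the ratios were smaller, at 0.19 and 0.16 for *Hspa5*, 0.16 and 0.19 for *Calr* and −0.04 and −0.15 for *Hsp90b1*, and again none was past the fold (3.6% and 2.71% of all genes at day +7, 3.92% and 3.35% at day +14).

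Outside the T gate, *Xbp1* had the highest ratio of the 10 genes in the myeloid gate. It was at 131 CPM (104 to 163) in the myeloid gate and 39.1 CPM in T-gated cells of day +7, and at 98.5 CPM (75.7 to 126) and 34.4 CPM at day +14. The log2 ratios of 1.74 (1.40 to 2.07) and 1.52 (1.13 to 1.88) made it the single gene of the 10 past 1.5-fold higher on each day in CPM, beside 22.6% and 20.5% of all tested genes. By median-ratio scaling, which raises the ratios of this gate by 0.53 and 0.35, 6 and 2 of the 10 genes were past that fold. At day +14, *Pdia4* (34.4 against 61.9 CPM) and *Herpud1* (21.9 against 39.1 CPM) were past the fold in the lower direction, on 22 and 14 UMIs, beside 41.9% of all genes, and at day +7 it was 0 genes, beside 46.5%.

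The sum of the 10 genes in the myeloid gate was 2205 CPM (2088 to 2327) at day +7 and 1649 CPM (1551 to 1751) at day +14. Against T-gated cells this was a log2 ratio of 0.24 and −0.22. Under median-ratio scaling both were positive, at 0.77 and 0.13. *S100a8*, a gene of the myeloid list, alone took up 118601 and 100078 CPM of this gate. Between the days *Hspa5* fell from 343 to 209 CPM there and *Calr* from 487 to 344 CPM, with log2 ratios of −0.71 (−1.04 to −0.39) and −0.50 (−0.76 to −0.25). *Hspa5* and *Herpud1* were the 2 of 9 tested genes past the fold, both lower, beside 8.98% of all genes, and 0 were higher, beside 26.9%. The complement genes that mark macrophages moved in the same gate, with *C1qa* at 895 and 117 CPM, *C1qb* at 531 and 131 CPM and *C1qc* at 388 and 98.5 CPM, and their part in the difference was not tested.

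The erythroid gate held 105 barcodes with a median of 32315 UMIs at day +7 and 21 with a median of 2597 at day +14. At day +7 *Ddit3* was at 35.3 CPM (28.8 to 42.8) there against 17.3 CPM in T-gated cells, a log2 ratio of 1.03 (0.73 to 1.32), and *Canx* at 211 against 120 CPM (0.81, 0.69 to 0.93). These 2 genes were past 1.5-fold higher, beside 32.8% of all genes, and 5 were lower, beside 23.6%. The 5 were *Hsp90b1*, *Pdia3*, *Pdia4*, *Xbp1* and *Herpud1*, with *Hsp90b1* at 274 CPM against 435 CPM. At day +14 *Ddit3* was at 61.1 CPM (26.4 to 120) on 8 UMIs, and *Herpud1* had 0 of 130973 UMIs, which allows up to 3 UMIs. Against T-gated cells of that library 1 gene was higher (*Ddit3*) and 6 were lower with *Herpud1* counted, beside 31.5% and 33.9% of all genes. Between the days within the gate 1 was higher (*Ddit3*) and 5 were lower with *Herpud1* counted, beside 23.5% and 23.2%. The day +14 values of this gate rest on few UMIs, with 2 each for *Pdia4* and *Xbp1*.

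The rest of the ER pathway was read from lists of its genes, first between the days in T-gated cells, where 10.2% of all tested genes were higher by 1.5-fold or more, 2.72% lower and 74.4% above 0. Of 16 tested genes listed as ER chaperones and co-chaperones, 0 were past 1.5-fold in either direction. Their median log2 ratio was −0.06, beside 0.20 for all genes. The prolyl isomerase *Ppib* had the most UMIs, with 729 CPM at the earlier and 632 CPM at the later day, the BiP co-chaperone *Dnajc10* the highest ratio (0.39, 0.29 to 0.49) and the isomerase *Fkbp2* the lowest (−0.55, −0.58 to −0.52). Of 11 disulfide enzymes, 1 was higher and 2 were lower. *Selenof* had the most UMIs (0.04), *Tmx2* the highest ratio (0.59, 0.48 to 0.70) and *Prdx4*, an ER peroxidase, the lowest (79.7 to 45.8 CPM, −0.80, −0.86 to −0.74).

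Of 18 genes of ER-associated degradation, 1 was higher and 0 were lower. They included *Selenok* with the most UMIs (−0.07), *Herpud2*, the relative of *Herpud1*, with the highest ratio (0.61, 0.49 to 0.73) and the ubiquitin-conjugating enzyme *Ube2g2* with the lowest (−0.23). The list of sensors and their processing held 7 genes, of which 4 were tested. All 4 had ratios above 0, and 2 were past the fold in CPM. *Atf6b*, a relative of the sensor ATF6, went from 12.2 to 19.1 CPM (0.64, 0.53 to 0.76), the *Xbp1* mRNA ligase *Rtcb* from 51.9 to 76.1 CPM (0.55, 0.50 to 0.61) and *Atf6* from 22.1 to 31.5 CPM (0.51, 0.42 to 0.60). Median-ratio scaling lowers each of these ratios by 0.23, which leaves all 4 above 0 and none past the fold.

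Of 10 genes of the integrated stress response, 1 was higher and 1 was lower. *Eif2ak2*, the double-stranded RNA kinase PKR, was the highest (0.76, 0.66 to 0.85), *Ppp1r15a*, the phosphatase subunit GADD34 that ends the response, the lowest (28.3 to 18.3 CPM, −0.62, −0.72 to −0.53), and *Eif2s1* had the most UMIs (0.19). Of 31 genes of the translocon, signal peptidase and oligosaccharyltransferase, 0 were past the fold, with *Sec61b* having the most UMIs (−0.25), *Spcs3* the highest (0.32) and *Krtcap2* the lowest ratio (−0.45). For comparison, the 12 tested cytosolic heat shock chaperones had a median of −0.01, with 0 past the fold and *Hsp90ab1* (0.36), *Hspa4* (0.42) and *Ahsa1* (−0.28) as named genes. The 12 dissociation-induced genes had a median of 0.02, with 2 higher and 2 lower, and ran from *Fosb* (−1.08) to *Egr1* (1.24), with *Jund* (0.06) the most abundant.

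The same lists were read between cycling and non-cycling CD8 cells of day +7. Of 16 genes listed as ER chaperones and co-chaperones, 4 were higher by 1.5-fold or more and 0 lower. Of all tested genes 14.1% were higher and 6.47% lower. The 4 were *Sdf2l1*, *Creld2*, *Fkbp2* and the glucosidase *Mogs*, named here after their values were seen. Their log2 ratios were 1.02, 1.03, 1.01 and 0.95. At day +14, 3 were higher and 1, *Dnajb9*, was lower, beside 12.4% and 7.75%. Of 11 disulfide enzymes 2 were higher and 0 lower at day +7, and of 18 degradation genes 0 were past the fold. The 4 tested genes of the list of sensors and their processing were all below 0. Their median was −0.07, where 55.5% of all genes were above 0. In the integrated stress response list 1 gene was higher, the asparagine synthetase *Asns* (15.2 CPM in cycling against 5.01 CPM in non-cycling cells, 1.60, 1.29 to 1.93), and 1 was lower, *Ppp1r15a* (−0.70, −0.83 to −0.56). Of 31 translocon and related genes 1 was higher. Among the few genes outside the 10 whose windows hold ERSE, 3 were tested at day +7, and *Creld2* (1.03) and *Hnrnpa3* (0.60) were past the fold with *Dnajc3* at 0.20. At day +14 these 3 were at 0.74, 0.64 and 0.26, and *Syvn1*, tested only on that day, was lower in cycling cells (−0.45, −0.69 to −0.20).

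The genes most like *Hspa5* and *Herpud1* were sought over the 8 profiles of CD4 or CD8, cycling or non-cycling cells of each day, as Pearson's r of log2(CPM + 1) among 2534 and 2535 genes whose mean was 50 CPM or more. The profiles come from 2 libraries and are not independent. *Hspa5* was most like *Top1* (0.98), *Cd2bp2* (0.96), *Tgfb1* (0.96), *2210016F16Rik* (0.96) and *Naa10* (0.95), and *Calr* came at rank 7 (0.94). *Pdia4* (0.77, rank 90), *Pdia6* (0.70, rank 191), *Pdia3* (0.61, rank 460), *Hsp90b1* (0.48, rank 797) and *Canx* (0.47, rank 820) lay further down. *Herpud1* was most like *Rnh1* (0.98), *Gadd45b* (0.97), *Cd69* (0.95), *Rpl29* (0.94) and *Pou2f2* (0.94), and its r with the 7 folding genes ran from −0.73 for *Canx* to 0.10 for *Hspa5*.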

How the data were processed

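Per the file headers and the labels, the authors made the deposited whole-number UMI counts per gene and cell with Cell Ranger 6.1.2 on mm10, for barcodes called as cells and without normalization. Here barcodes with 500 to 7500 genes and at most 15% mitochondrial UMIs were kept, as in the study's methods. Per 10000 UMIs, the T gate needed 10 of 6 T cell genes and under 20 of each other lineage's genes (10 myeloid, 8 erythroid, 5 B and plasma). Non-T gates needed under 10 and at least 20. Barcodes passing neither stayed out of all gates. CD8 cells had at least 2 UMIs of *Cd8a* and *Cd8b1* and more than of *Cd4*, CD4 cells at least 1 of *Cd4* and more than of *Cd8a* and *Cd8b1*. Cycling cells had at least 5 per 10000 of 10 cycling genes. The study also excluded doublets called by Scrublet, whereas no doublet caller was run here. Barcodes that reached both the T threshold and that of another lineage stayed ungated. Those that reached 2 non-T thresholds went to the gate of the higher list. Leaving out the deepest 5% was an alternative.

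For each gate, UMIs were added up over its cells and divided by their total (CPM), without scaling for length, so levels are compared between gates and not between genes. Levels have exact Poisson intervals, and log2 ratios of CPM exact conditional binomial intervals. Cells are not replicates, and no test was made. For counts past 1.5-fold, genes needed a mean of 10 CPM and 20 UMIs. The named genes are the 10 genes, in each list those with the most UMIs and the highest and lowest ratio between days in T-gated cells, and the 5 most like *Hspa5* and *Herpud1*. Genes of the cycling comparison, markers and genes with ERSE beyond these were named after their values were seen. The genes and lists were chosen with earlier results of these data known. Promoters came from RefSeq (GRCm38.p6), gene positions from GENCODE. Python 3.11.15 with numpy 2.4.6, scipy 1.17.1, pandas 2.3.3 and matplotlib 3.10.9 was used, and the calculations were tested on simulated data.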

Additional observations from a re-analysis of the deposited data

Results flagged for a closer look

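*Hsp90b1* differed in direction between gates when day +14 was set against day +7. Its log2 ratio was 0.23 in CD8 non-cycling and 0.18 in CD4 non-cycling cells, and −0.13 in CD4 cycling and −0.43 in myeloid-gated cells. The median over all tested genes was 0.21 in each of the 2 non-cycling gates, and median-ratio scaling lowers the CD8 non-cycling value by 0.22. The sum of the 10 genes was likewise 0.11 in CD8 non-cycling and −0.42 in myeloid-gated cells. These differences between gates were not tested, since each gate has 1 library per day.

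The B and plasma cell gate entered no comparison. At day +14 it held 2 droplets, in which the 10 genes reached 16395 CPM together, against 1917 CPM in T-gated cells of the same library. The droplets had 22727 and 11438 CPM of the 10 genes, with *Hsp90b1* at 12581 and 4647 CPM, *Xbp1* at 1522 and 1271 CPM and *Ddit3* at 0 UMIs in both. They held *Igkc* at 110694 and 119341 CPM. *Jchain*, at 10603 and 5282 CPM, is among the 5 genes that define this gate, so its level is no independent mark. *Cd3e* had 0 UMIs in the first and 6 in the second. No droplet of day +7 entered this gate.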

How the results depend on the processing

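The design sets the limits: 1 library per day, cells pooled from 5 spleens, and compared gates of as few as 21 barcodes. The intervals cover counting error only. No paired analysis was possible because each day has 1 library and the labels carry no replicate numbers. Of the main results recomputed under alternatives, 273 values stayed within the counting interval of the reported value or within 1.5 times a reported count, and 90 moved beyond it. The summed log2 ratio of cycling over non-cycling cells was above 0 under all 10 alternatives on both days in CD8 and in CD4 cells, whereas each summed ratio between the days took both signs. Where a value moved, the cause was not tested. A mitochondrial limit of 5% moved none of these.

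Scaling by the median ratio of genes with 100 UMIs or more gave summed log2 ratios of −0.16, −0.20, −0.11, −0.21 and −0.11 for day +14 over day +7 in all kept cells, T-gated cells, CD8 non-cycling, CD8 cycling and CD4 cycling cells. It gave 0.42 for cycling over non-cycling CD8 cells of day +14. It gave 0.0091 for CD4 over CD8 non-cycling cells of day +14. It gave 0.77 and 0.13 for myeloid over T-gated cells of day +7 and day +14. By this scaling the number of the 10 genes higher by 1.5-fold or more was 2 for cycling over non-cycling CD8 cells of day +14, 6 and 2 for myeloid over T-gated cells of day +7 and day +14. The number lower by 1.5-fold or more was 0 for myeloid over T-gated cells of day +14. Totals without mitochondrial, ribosomal protein and rRNA-associated genes gave summed log2 ratios of 0.0097, 0.0070, 0.089, −0.029 and −0.068 for day +14 over day +7 in all kept cells, T-gated cells, CD8 non-cycling, CD8 cycling and CD4 non-cycling cells. It gave 0.44, 0.32 and 0.32 for cycling over non-cycling CD8 cells of day +7, CD8 cells of day +14 and CD4 cells of day +7. It gave −0.023 and −0.52 for myeloid over T-gated cells of day +7 and day +14. Without these genes the number of the 10 genes higher by 1.5-fold or more was 1 and 1 for cycling over non-cycling CD8 cells of day +7 and CD4 cells of day +7. The number lower by 1.5-fold or more was 1 and 5 for myeloid over T-gated cells of day +7 and day +14. The mean of per-cell CPM gave summed log2 ratios of 0.058, 0.060 and 0.018 for day +14 over day +7 in all kept cells, T-gated cells and CD8 cycling cells. It gave 0.44 and −0.54 for myeloid over T-gated cells of day +7 and day +14. Per cell the number of the 10 genes higher by 1.5-fold or more was 2 for day +14 over day +7 in CD4 non-cycling, 2 for myeloid over T-gated cells of day +7. The number lower by 1.5-fold or more was 1 and 4 for myeloid over T-gated cells of day +7 and day +14. Thinning to 4000 UMIs gave summed log2 ratios of 0.087, 0.085, 0.020 and 0.058 for day +14 over day +7 in all kept cells, T-gated cells, CD8 cycling and CD4 cycling cells. It gave 0.48, 0.30 and 0.30 for cycling over non-cycling CD8 cells of day +7, CD4 cells of day +7 and CD4 cells of day +14. It gave 0.13 for CD4 over CD8 non-cycling cells of day +14. It gave 0.14 and −0.51 for myeloid over T-gated cells of day +7 and day +14. After thinning the number of the 10 genes higher by 1.5-fold or more was 1 for cycling over non-cycling CD4 cells of day +7, 2 for myeloid over T-gated cells of day +7. The number lower by 1.5-fold or more was 1 for day +14 over day +7 in CD4 cycling, 2 and 6 for myeloid over T-gated cells of day +7 and day +14. Leaving out Calr, Hsp90b1 and Hspa5, an alternative chosen after seeing the data, gave summed log2 ratios of 0.098, 0.088, 0.20, 0.041 and 0.035 for day +14 over day +7 in all kept cells, T-gated cells, CD8 non-cycling, CD8 cycling and CD4 cycling cells. It gave 0.43, 0.28, 0.33 and 0.30 for cycling over non-cycling CD8 cells of day +7, CD8 cells of day +14, CD4 cells of day +7 and CD4 cells of day +14. It gave 0.024 for CD4 over CD8 non-cycling cells of day +14. It gave −0.090 for myeloid over T-gated cells of day +14. Equal weight to the 4 CD4 and CD8 gates gave a summed log2 ratio of 0.015 for day +14 over day +7 in T-gated cells. A cycling threshold of 2 per 10000 gave summed log2 ratios of 0.15 and 0.083 for day +14 over day +7 in CD8 non-cycling and CD4 non-cycling cells. It gave 0.59, 0.44 and 0.26 for cycling over non-cycling CD8 cells of day +7, CD8 cells of day +14 and CD4 cells of day +14. It gave 0.24 and 0.17 for CD4 over CD8 non-cycling cells of day +7 and day +14. At this threshold the number of the 10 genes higher by 1.5-fold or more was 2 and 1 for cycling over non-cycling CD8 cells of day +14 and CD4 cells of day +14. Strict CD4 and CD8 gates gave a summed log2 ratio of −0.082 for day +14 over day +7 in CD4 cycling. It gave 0.30 for cycling over non-cycling CD4 cells of day +14. In strict gates the number of the 10 genes higher by 1.5-fold or more was 1 for day +14 over day +7 in CD4 non-cycling cells. Leaving out the deepest 5% of barcodes gave summed log2 ratios of 0.45 and 0.33 for cycling over non-cycling CD8 cells of day +7 and CD8 cells of day +14. It gave 0.055 and −0.36 for myeloid over T-gated cells of day +7 and day +14. Without them the number of the 10 genes higher by 1.5-fold or more was 1 for cycling over non-cycling CD8 cells of day +7. The number lower by 1.5-fold or more was 2 for myeloid over T-gated cells of day +7. A cycling threshold of 10 per 10000 gave summed log2 ratios of 0.38, 0.26 and 0.33 for cycling over non-cycling CD8 cells of day +7, CD8 cells of day +14 and CD4 cells of day +7. It gave 0.11 and −0.0042 for CD4 over CD8 non-cycling cells of day +7 and day +14. At 10 per 10000 the number of the 10 genes higher by 1.5-fold or more was 1, 0 and 1 for cycling over non-cycling CD8 cells of day +7, CD8 cells of day +14 and CD4 cells of day +7. Without a minimum CPM, 11 genes of the pathway lists were lower by 1.5-fold or more between the days in T-gated cells, where 5 had been, and 9 were higher, where 7 had been. Among results for single genes, 172 values stayed within the interval and 68 moved.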

Other observations

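Cycling CD8 cells were also divided, after the data had been seen, by whether their S-phase or their mitosis genes were the more abundant. *Pdia6* was at 223 CPM in 1755 S-leaning and 154 CPM in 1350 mitosis-leaning cells of day +7 (log2 ratio 0.53, 0.47 to 0.60) and at 198 and 141 CPM at day +14 (0.48, 0.42 to 0.54). *Pdia3* (0.32 and 0.22), *Calr* (0.26 and 0.23) and *Hspa5* (0.21 and 0.19) lay on the same side. *Hsp90b1*, at 0.04 and −0.02, was nearly level between them, as was *Canx*, at 0.05 on both days. *Herpud1* was at 0.20 and 0.02. On the other side lay *Pdia4* (−0.08 and −0.03) and *Ddit3* (−0.13 and −0.28), and *Xbp1* was at 0.09 and −0.16. Of these, only the day +14 intervals of *Ddit3* and *Xbp1* lay below 0. Median depths were 14223 and 13376 UMIs at day +7 and 13322 and 13136 at day +14.

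After each cell was thinned to 4000 UMIs, which left out 60 of the CD8 non-cycling cells of day +7 and 302 of day +14, the 10 genes gave a median of 5 UMIs per CD8 non-cycling and 7 per CD8 cycling cell on both days. Over the 45 pairs of genes, the median correlation across thinned cells ran from 0.04 to 0.10 over the 8 combinations of gate and day. The highest single value was 0.32, for *Calr* and *Pdia6* in CD4 non-cycling cells of day +7. Values this low in sparse counts are no finding.

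Thinned CD8 cells with a *Ddit3* UMI were 186 and 172 of the non-cycling and 220 and 188 of the cycling cells of day +7 and day +14. In the cycling cells of day +7 they held more *Herpud1* (65.9 against 42.8 CPM, log2 ratio 0.62) and more *Atf4* (105 against 73.5 CPM, 0.51) than cells without. They held less *Calr* (−0.19), *Canx* (−0.34) and *Pdia6* (−0.26), with intervals below 0. In cycling cells of day +14 the ratios of *Herpud1* and *Atf4* were −0.08 and 0.11. The intervals of all 5 genes included 0 there, so these differences were not seen in both libraries. Clear of 0 at day +14 were *Xbp1* (0.61), *Pdia3* (−0.20) and *Asns* (−1.33), whose intervals at day +7 included 0.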
